A study of Rattus norvegicus with 12 samples.

Results

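The genes described here are 6 chemokine ligands and 3 chemokine receptors of the CXC family that recruit leukocytes: Cxcl1, Cxcl2, Cxcl9, Cxcl10, Cxcl13, Cxcl16, Cxcr2, Cxcr3 and Cxcr5. They were taken by symbol from the expression table, which holds 22601 genes, and all 9 were found in it. RNA of the tissue in a distal femoral bone defect was sequenced in 12 libraries, 3 in each of 4 groups, from Sprague Dawley rats that were 8 weeks old at surgery. A 3 mm drill had opened the bone cortex of the lateral femoral condyle, and the newly formed tissue was taken 2 weeks later. The control group received no scaffold. The other groups received a 3D printed scaffold of gelatin methacryloyl hydrogel (hydrogel group), of polycaprolactone, a slowly degrading polyester (PCL group), or of β-tricalcium phosphate, a resorbable ceramic (β-TCP group). The labels and methods name no transgene and no drug treatment in any group. In the scaffold groups the sample was the tissue together with the scaffold it had grown into, whereas the control sample was newly formed tissue alone, so the material differs between these groups in more than the scaffold. The methods ask for independent samples in each analysis but do not tie each of these libraries to a rat, and p-values cover only the spread among these samples, which may be technical.

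Chemokines are small secreted proteins that bind receptors on leukocytes and draw these cells along a gradient. CXC ligands with a glutamate-leucine-arginine motif (ELR) ahead of the first cysteines, among them Cxcl1 and Cxcl2, act on Cxcr2 and attract neutrophils in the first phase of a wound or fracture. Cxcl9 and Cxcl10 lack that motif, are induced by interferons and attract activated T cells and NK cells through Cxcr3. Cxcl13 attracts B cells and follicular helper T cells through Cxcr5 and is known as the organiser of B cell follicles. Cxcl16 is made as a membrane protein on macrophages and other cells, is released by the proteases Adam10 and Adam17, and binds Cxcr6 on T cells.

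The promoters of 4 ligands are shown as the neutrophil attractants Cxcl1 and Cxcl2, the B cell attractant Cxcl13, which had the widest range of levels in FPKM, and Cxcl10, an interferon-induced ligand whose levels overlapped in all groups. Each is the 250 bases before the annotated start, 5′ to 3′ on the strand of the gene, from RefSeq on build GRCr8, which is a later build than the Rnor_6.0 named for the deposited values. Capitals mark every match, on either strand, to the NF-κB consensus, to TATAAA, to TGANTCA (the AP-1 consensus) or to AANNGAAA (the core bound by interferon regulatory factors).
Cxcl1 (chr14:17479322-17479571, minus strand): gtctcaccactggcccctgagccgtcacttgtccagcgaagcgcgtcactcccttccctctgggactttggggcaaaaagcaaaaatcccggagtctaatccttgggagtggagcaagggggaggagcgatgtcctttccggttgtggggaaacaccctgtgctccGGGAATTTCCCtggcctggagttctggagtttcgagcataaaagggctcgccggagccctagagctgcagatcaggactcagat
Cxcl2 (chr14:17467256-17467505, minus strand): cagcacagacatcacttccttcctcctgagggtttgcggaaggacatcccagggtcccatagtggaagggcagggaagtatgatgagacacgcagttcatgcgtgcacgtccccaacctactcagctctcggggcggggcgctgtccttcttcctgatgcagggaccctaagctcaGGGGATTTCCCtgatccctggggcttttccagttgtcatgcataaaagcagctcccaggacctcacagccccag
Cxcl13 (chr14:13917921-13918170, minus strand): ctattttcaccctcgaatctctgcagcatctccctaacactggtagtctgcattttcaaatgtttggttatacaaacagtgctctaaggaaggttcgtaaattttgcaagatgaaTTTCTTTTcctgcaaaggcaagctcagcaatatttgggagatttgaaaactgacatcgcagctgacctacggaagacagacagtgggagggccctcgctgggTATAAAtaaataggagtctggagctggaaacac
Cxcl10 (chr14:15988816-15989065, plus strand): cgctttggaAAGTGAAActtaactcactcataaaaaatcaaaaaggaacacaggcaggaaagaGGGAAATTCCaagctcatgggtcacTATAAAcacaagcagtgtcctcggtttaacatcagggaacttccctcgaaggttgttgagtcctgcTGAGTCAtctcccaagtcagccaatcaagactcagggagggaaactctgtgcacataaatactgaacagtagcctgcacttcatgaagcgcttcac
The NF-κB consensus starts 84 and 83 bases before the start of Cxcl1, as 2 overlapping matches, and in the same way 74 and 73 bases before that of Cxcl2. In Cxcl10 it starts 187 bases before the start, and in Cxcl13 it is not in this window. Of all 33469 promoter windows of this length, 3.54% hold the NF-κB consensus, 12.9% TATAAA, 6.34% TGANTCA and 23.3% AANNGAAA. The Cxcl13 window holds TATAAA 33 bases before the start and AANNGAAA, on the other strand, 135 bases before it. The Cxcl10 window holds TATAAA at 162 bases, TGANTCA at 96 bases and AANNGAAA at 241 bases before the start. The windows of Cxcl9, Cxcl16, Cxcr2 and Cxcr3 hold no NF-κB match, and Cxcr5 was not matched. These are matches of letters and were not set against any measured binding. Cxcl13, Cxcl10, Cxcl9, Cxcl2 and Cxcl1 lie on rat chromosome 14 in that order, with Cxcl11, Cxcl3 and Cxcl6 on the same chromosome, whereas Cxcl16 lies on chromosome 10. Cxcl1, Cxcl2, Cxcl3 and Cxcl6 are related copies of 1 ancestral gene, and how fragments that match several of them were counted is not given in the sources used here, so their separate values are uncertain to that extent.

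Levels are in FPKM, which divides the fragments of a gene by its length and by the depth of the library, so levels of different genes can be set side by side. The depth was 15035925 to 17357830 fragments per library, recovered from the steps of the FPKM values. Osteoblast markers summed to 6311 to 26128 FPKM over the libraries, so the labelled bone tissue carried its defining markers. Some libraries stood apart. β-TCP replicates 2 and 3 were much closer to each other than any other libraries of 1 group, with a chi-square per gene that averaged 2.14 for them and 30.4 to 301 for the other 11 pairs. They were kept as 2 libraries, as their labels give them, and results are also given with their mean as 1 library. Control replicate 3 had the lowest summed neutrophil markers of all libraries (60 FPKM, against 913 to 5703 in the other 11) and the lowest B cell, T cell and NK cell sums. Its summed cartilage markers were 14365 FPKM, against 2440 and 2448 in control replicates 1 and 2 and 192 to 1060 in the scaffold groups. In tissue RNA, fewer cells of a type and less RNA per cell cannot be told apart.

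In these data the ligands Cxcl1, Cxcl2, Cxcl13 and Cxcl16 reached their highest levels in the β-TCP group, Cxcl9 and Cxcl10 had overlapping levels in all 4 groups, and none of the 3 receptors was highest in the β-TCP group. Groups were compared with limma on log2(FPKM + 1), a scale that shrinks the changes of weakly expressed genes, in 1 fit of the 12 libraries. The test covered 12633 genes, each at 1 FPKM or more in 3 or more libraries. Of the 9 members 8 passed this filter. Cxcl2 reached 1 FPKM in 2 libraries only, and its differences come from a fit without the filter. A gene was called at a Benjamini-Hochberg adjusted p under 0.05. A looser count used the study's own threshold, a fold change over 2 or under 0.5 at an unadjusted p under 0.05. At the adjusted p, β-TCP against control called 1 of the 8 members (Cxcl16, higher), where 4.78% of all tested genes were called. Against hydrogel β-TCP called 2 (Cxcl1 and Cxcl16, both higher), beside 6.13% of all genes, and against PCL it called 1 (Cxcl1, higher), beside 0.657%. No member was called in hydrogel against control (0.00792% of all genes called), PCL against control (0.277%) or PCL against hydrogel (0.103%). In these comparisons 2, 1 and 0 members had an unadjusted p under 0.05. The share of all genes at that unadjusted p was not counted, so these member counts are not read as an excess. The number of all genes called rests on the near-identical libraries as well. With β-TCP replicates 2 and 3 averaged it was 11 in place of 604 in β-TCP against control, 16 in place of 775 against hydrogel and 2 in place of 83 against PCL, with no member among them. No gene of the marker, inducer or protease lists that was called in any comparison kept its call in that fit. At the study's threshold 3 members were higher in β-TCP than in control (Cxcl1, Cxcl13 and Cxcl16), beside 2.49% of all genes higher. The same 3 were higher in β-TCP than in hydrogel, beside 3.36%, and Cxcl1 and Cxcl16 were higher in β-TCP than in PCL, beside 1.14%. The share of all genes that were lower at this threshold is not given here for the β-TCP comparisons. No member passed it in hydrogel against control (2.29% of all genes in either direction), PCL against control (3.64%) or PCL against hydrogel (0.768%). The median log2 fold change of the 8 tested members was 0.48 in β-TCP against control, beside 0.03 over all tested genes, and 0.52 in hydrogel against control beside 0.14. It was 0.28 beside 0.04 in PCL against control, -0.09 beside -0.06 in PCL against hydrogel, 0.07 beside -0.06 in β-TCP against hydrogel and 0.34 beside 0.04 in β-TCP against PCL. All 10 cartilage markers were lower in each scaffold group than in control at the study's threshold, 6 of them at the adjusted p in β-TCP against control. The median log2 fold change of the 10 was -4.01 in hydrogel, -4.19 in PCL and -3.82 in β-TCP, beside 0.14, 0.04 and 0.03 over all tested genes. The part of cartilage in the differences from control was not tested.

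**Figure D1:**
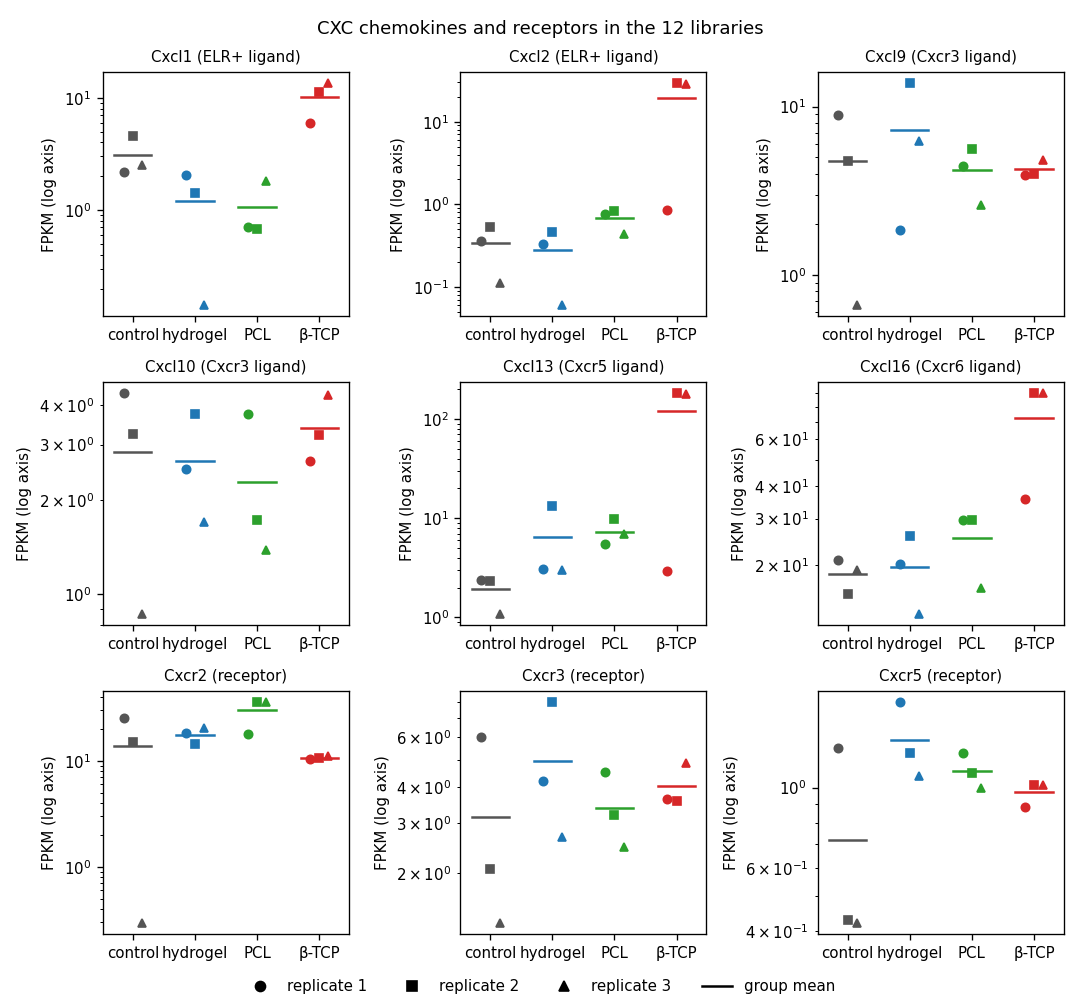
Level in FPKM (vertical axis, logarithmic and scaled for each gene) of the 9 genes in the 12 libraries. Each point is 1 library, its shape gives the replicate number and the line is the group mean. β-TCP replicates 2 and 3 lie far above replicate 1 for Cxcl2 and Cxcl13, and for Cxcr2 the 3 β-TCP libraries lie between 10.5 and 11.1 FPKM while control replicate 3 lies at 0.293.

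Cxcl1, a neutrophil attractant of the ELR class, was higher in the β-TCP group than in every other group. It was at 5.99, 11.2 and 13.4 FPKM in β-TCP replicates 1 to 3, at 2.18, 4.52 and 2.5 in the control group, at 2.07, 1.43 and 0.143 in the hydrogel group and at 0.705, 0.679 and 1.81 in the PCL group. All 3 β-TCP libraries lay above the other 9, and the lowest control library lay above all hydrogel and PCL libraries, which overlapped each other. Group means were 10.2 ± 3.79 FPKM (SD, n = 3) in β-TCP, 3.06 ± 1.27 in control, 1.21 ± 0.98 in hydrogel and 1.06 ± 0.644 in PCL. The values rest on 95 to 206 fragments per β-TCP library, 31 to 64 per control library, 2 to 32 per hydrogel library and 11 to 28 per PCL library. Cxcl1 rose in β-TCP by 2.39 on the log2 scale against hydrogel (standard error 0.40, adjusted p = 0.0131) and against PCL by 2.42 (standard error 0.40, adjusted p = 0.0362). Against control the difference was 1.44 (standard error 0.40, adjusted p = 0.0697), which passed the study's threshold and not the adjusted one, except without hydrogel replicate 3 or β-TCP replicate 1 (adjusted p = 0.0497 without the latter). Without β-TCP replicate 1 that group held only the near-identical libraries. Hydrogel and PCL differed from control by -0.95 and -0.98 (standard error 0.40 in both, adjusted p = 0.312 and 0.247). With β-TCP replicates 2 and 3 averaged, β-TCP against hydrogel was 2.24 (adjusted p = 0.0728) and against PCL 2.27 (adjusted p = 0.182), so both calls were lost. The call against hydrogel was also lost without β-TCP replicate 2 or 3, and the call against PCL without control replicate 1, hydrogel replicate 1, any 1 of the PCL replicates, or β-TCP replicate 2 or 3.

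Cxcl2, the second neutrophil attractant, was high in 2 libraries of the series. In β-TCP replicates 2 and 3 it was at 29.0 and 28.4 FPKM (520 and 519 fragments), and in β-TCP replicate 1 at 0.853 (16 fragments). In the other groups it lay between 0.0602 and 0.835 FPKM, on 1 to 16 fragments per library. The control values were 0.356, 0.537 and 0.111 FPKM, the hydrogel values 0.327, 0.460 and 0.0602 and the PCL values 0.759, 0.835 and 0.437. β-TCP replicate 1 was thus not set apart from the other groups at this depth, and replicates 2 and 3 were far above all 10 other libraries. In the fit without the filter, β-TCP against control was 3.16 on the log2 scale (standard error 0.86, adjusted p = 0.0866), against hydrogel 3.21 (adjusted p = 0.072) and against PCL 2.82 (adjusted p = 0.163). Without β-TCP replicate 1 these were 4.49, 4.55 and 4.16, with adjusted p of 1.12e-05, 1e-05 and 1.75e-05, and they then rest on the 2 near-identical libraries. β-TCP against hydrogel also passed without control replicate 3 (adjusted p = 0.0365). Without that library 37.5% of all genes that passed the filter were called in this comparison.

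Cxcr2, the receptor of these ligands and a gene of neutrophils, did not follow them. Its β-TCP values of 10.5, 10.6 and 11.1 FPKM were the closest to each other of any group, and they were the lowest of the series apart from control replicate 3. Control values were 25.5, 15.2 and 0.293 FPKM, hydrogel values 18.2, 14.3 and 20.2, and PCL values 17.8, 36.1 and 35.9. The 3 β-TCP libraries lay below all hydrogel and all PCL libraries. The difference of β-TCP from PCL was -1.33 (standard error 0.86, adjusted p = 0.369), and without control replicate 3 it was -1.33 (standard error 0.27, adjusted p = 0.0236). Without that library 15.1% of all tested genes were called in this comparison, against 0.657% with all libraries. In the fit of only the 2 groups compared Cxcr2 was called lower in β-TCP than in PCL (-1.33, standard error 0.26, adjusted p = 0.0273) and than in hydrogel (-0.65, standard error 0.13, adjusted p = 0.0203). These fits called 17.3% and 33.6% of all tested genes, against 0.657% and 6.13% in the fit of all libraries, so the Cxcr2 calls are not particular to it. In the fit of all 12 libraries β-TCP differed from hydrogel by -0.65 (95% interval -2.56 to 1.27) and from control by 0.51 (-1.40 to 2.43). PCL against control was 1.85 (standard error 0.86, adjusted p = 0.285) and 0.51 (adjusted p = 0.406) without control replicate 3.

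The 4 libraries with the lowest Cxcr2 also had the lowest summed neutrophil markers. S100a8 and S100a9, abundant neutrophil proteins, make up most of this sum. The summed FPKM of 14 markers was 913 to 1252 in the β-TCP group, 2272 to 4680 in hydrogel, 1841 to 5703 in PCL and 60 to 3216 in control. S100a8 and S100a9 were at 316 to 434 and 457 to 647 FPKM in β-TCP, and at 12.9 and 19.1 in control replicate 3. In β-TCP against hydrogel 5 of the 12 tested markers were lower at the study's threshold, with Ngp at -3.17 and Camp at -3.03 on the log2 scale, and 0 passed the adjusted p. The median log2 fold change of the 12 was -1.62 there, beside -0.06 over all tested genes, and the share of all genes lower at this threshold is not given here. In β-TCP against control and in β-TCP against PCL no marker passed either threshold. Single markers did not all follow the sum. Lcn2, a granule protein of neutrophils, was at 26.1, 47.8 and 50 FPKM in β-TCP and at 20.3, 40.5 and 38.1 in PCL. β-TCP replicates 2 and 3, with the high Cxcl2, had the lowest sums after control replicate 3 (925 and 913 FPKM). The part of the neutrophil markers in the Cxcr2 differences was not tested.

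**Figure D2:**
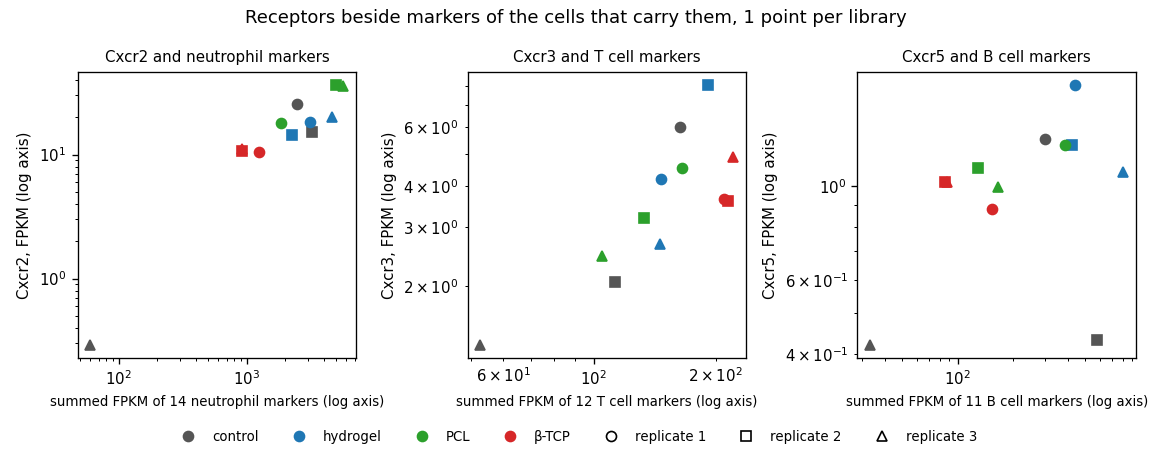
Level of each receptor (vertical axis, FPKM) against the summed FPKM of markers of the cells that carry it (horizontal axis), both logarithmic, with 1 point per library coloured by group and shaped by replicate. Cxcr2 is lowest where the neutrophil sum is lowest (60 FPKM, control replicate 3), and control replicate 2 has a high B cell sum (581) with low Cxcr5 (0.431 FPKM). The β-TCP libraries have the highest T cell sums (210 to 221) without the highest Cxcr3. Cd4, which rat macrophages also carry, held 146 to 154 FPKM of these sums and 43.7 to 104 elsewhere, so this order rests on Cd4.

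Cxcl13, the B cell attractant, had the widest range of the 9 genes in FPKM (1.08 to 185), while as a ratio of highest to lowest that of Cxcl2 was wider (0.0602 to 29). It was at 185 and 178 FPKM in β-TCP replicates 2 and 3 (3405 and 3322 fragments) and at 2.91 in β-TCP replicate 1 (56 fragments). In control it was at 2.38, 2.33 and 1.08 FPKM, in hydrogel at 3.09, 13.4 and 3, and in PCL at 5.45, 9.73 and 6.87. The β-TCP group was thus split, with replicate 1 below every hydrogel and PCL library, and with replicates 2 and 3 at 62.3 times its value on average. The mean of 122 ± 103 FPKM (SD, n = 3) describes no single β-TCP library. All hydrogel and all PCL libraries lay above all control libraries. β-TCP against control was 4.15 (standard error 1.22, adjusted p = 0.0827), against hydrogel 3.04 (adjusted p = 0.116) and against PCL 2.63 (adjusted p = 0.231). Without β-TCP replicate 1 these were 6 (adjusted p = 8.86e-04), 4.89 (0.00287) and 4.48 (0.0073), and with replicates 2 and 3 averaged 3.22 (0.32), 2.11 (0.33) and 1.71 (0.549). The fit without replicate 1 has only the near-identical libraries in the β-TCP group. The differences of hydrogel and PCL from control were 1.11 (95% interval -1.59 to 3.81) and 1.51 (-1.19 to 4.21) in the fit of all libraries, and each passed the study's threshold without β-TCP replicate 1. That library belongs to neither comparison. Leaving it out changes only the spread that all groups share, estimated with the near-identical libraries as the whole β-TCP group.

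Cxcr5, the receptor of Cxcl13 on B cells, was the lowest of the 3 receptors and stayed between 0.421 and 1.73 FPKM. It was at 0.881, 1.02 and 1.02 FPKM in the β-TCP group, so the 2 libraries with high Cxcl13 did not have high Cxcr5. Control libraries were at 1.29, 0.431 and 0.421, hydrogel at 1.73, 1.25 and 1.08, and PCL at 1.25, 1.1 and 0.995. All groups overlapped their neighbours in the order hydrogel, PCL, β-TCP, control. Hydrogel and β-TCP, which are not neighbours in it, did not overlap (lowest hydrogel 1.08, highest β-TCP 1.02 FPKM). Hydrogel against control was 0.48 (standard error 0.19, unadjusted p = 0.026, adjusted p = 0.312), and β-TCP against control was 0.24 (95% interval -0.17 to 0.65). B cell markers, 11 of which were in the table, summed to 85.9 to 155 FPKM in β-TCP, 130 to 389 in PCL, 424 to 804 in hydrogel and 33.3 to 581 in control. In β-TCP against hydrogel 10 of the 11 were lower at the study's threshold and 0 at the adjusted p, among them Cd79a at -2.98, a chain of the B cell receptor complex. The median log2 fold change of the 11 was -2.22 there, beside -0.06 over all tested genes, and the share of all genes lower at this threshold is not given here. In β-TCP replicates 2 and 3, where Cxcl13 was at 185 and 178 FPKM, Cd79a was at 6.71 and 8.17 FPKM, against 71.6 to 142 in the hydrogel group. Genes of lymphoid tissue gave no call at the adjusted p in any comparison. Of 7 such genes 3 were tested, and Cr2, a complement receptor of B cells and follicular dendritic cells, was lower in β-TCP than in hydrogel at the study's threshold (-1.23).

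Cxcl16, a membrane-bound ligand of macrophages that the protease Adam10 releases, was higher in the β-TCP group than in the control and hydrogel groups. It was the member with the highest FPKM in 6 libraries, Cxcr2 in 4 and Cxcl13 in 2. In β-TCP it was at 35.5, 90.3 and 90.4 FPKM, in PCL at 29.7, 29.6 and 16.3, in hydrogel at 20.1, 25.7 and 13, and in control at 20.9, 15.5 and 19.1. All 3 β-TCP libraries lay above the other 9, and the levels of PCL, hydrogel and control overlapped. Group means were 72.1 ± 31.7 FPKM (SD, n = 3) in β-TCP, 25.2 ± 7.66 in PCL, 19.6 ± 6.36 in hydrogel and 18.5 ± 2.77 in control, on 333 to 2550 fragments per library. Cxcl16 rose in β-TCP by 1.80 on the log2 scale against control (standard error 0.38, adjusted p = 0.0284) and against hydrogel by 1.76 (standard error 0.38, adjusted p = 0.0271). Against PCL it was 1.41 (standard error 0.38, adjusted p = 0.108). With β-TCP replicates 2 and 3 averaged the first 2 were 1.58 (adjusted p = 0.139) and 1.54 (adjusted p = 0.129). The call against control was also lost without control replicate 2, β-TCP replicate 2 or β-TCP replicate 3, and the call against hydrogel without hydrogel replicate 1 or 3 or β-TCP replicate 2 or 3. Against PCL, Cxcl16 passed the adjusted p without control replicate 3 (0.0391) or β-TCP replicate 1 (0.0424). Those fits called 15.1% and 0.372% of all tested genes, and the second has only the near-identical libraries in the β-TCP group.

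Cxcr6, the receptor of Cxcl16 on T cells, was at 2.79, 2.74 and 2.69 FPKM in the β-TCP group, inside the ranges of the control group (0.291 to 4.29) and the hydrogel group (1.13 to 5.84), while the PCL libraries lay below it (0.742 to 2.04). Adam10 was at 32.1 to 35.2 FPKM in β-TCP, 35.9 to 40.4 in PCL, 34.2 to 36.9 in hydrogel and 19.2 to 33.9 in control. The macrophage sum was highest where Cxcl16 was highest, in the 3 β-TCP libraries. The summed FPKM of 14 markers was 1418, 2047 and 2052 in β-TCP replicates 1 to 3, 922 to 1179 in PCL, 720 to 1110 in hydrogel and 724 to 929 in control. In β-TCP against control 9 of the 13 tested markers were higher at the study's threshold and 8 at the adjusted p, with Msr1, a scavenger receptor, at 2.12, Trem2, a receptor of lipid-laden macrophages, at 2.06 and Adgre1 at 1.78 on the log2 scale. None of the 8 passed with β-TCP replicates 2 and 3 averaged (adjusted p = 0.104 for Msr1 and 0.106 for Trem2). Cd163, a scavenger receptor of macrophages, went the other way, at 8.3, 6.54 and 5.93 FPKM in β-TCP and 22, 22.1 and 27.7 in hydrogel (-1.66, adjusted p = 0.0521, past the study's threshold). Marco was at or near 0 throughout. The part of macrophage markers in the Cxcl16 difference was not tested.

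Cxcl9 and Cxcl10, the interferon-induced ligands of Cxcr3, gave no call in any comparison. Cxcl9 was at 8.87, 4.76 and 0.664 FPKM in the control group, at 1.85, 13.7 and 6.24 in hydrogel, at 4.43, 5.62 and 2.61 in PCL and at 3.93, 4 and 4.8 in β-TCP. Cxcl10 was at 4.39, 3.25 and 0.865 FPKM in control, at 2.5, 3.75 and 1.70 in hydrogel, at 3.75, 1.73 and 1.38 in PCL and at 2.65, 3.21 and 4.32 in β-TCP. For both genes control replicate 3 was the lowest library of the series, every group overlapped its neighbours, and β-TCP replicates 2 and 3 did not stand above replicate 1 as they did for Cxcl2 and Cxcl13. β-TCP against control was 0.20 for Cxcl9 (95% interval -1.26 to 1.66) and 0.31 for Cxcl10 (-0.56 to 1.18). Without control replicate 3 both differences changed sign, to -0.53 (adjusted p = 0.53) and -0.14 (adjusted p = 0.778). The intervals leave room for differences of over 2-fold in either direction for Cxcl9.

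Cxcr3, the receptor of both on activated T cells and NK cells, was at 6.03, 2.06 and 1.33 FPKM in control, at 4.2, 8.02 and 2.68 in hydrogel, at 4.53, 3.19 and 2.46 in PCL and at 3.65, 3.59 and 4.87 in β-TCP. Its highest library, hydrogel replicate 2, was also the highest for Cxcl9, and its lowest, control replicate 3, was the lowest for both ligands. Across the 12 libraries, and over log2 values that share their libraries and groups, Pearson's r of Cxcr3 was 0.73 with Cxcl9 and 0.78 with Cxcl10, as a description. β-TCP against control was 0.44 (standard error 0.41, adjusted p = 0.67). T cell markers summed to 210 to 221 FPKM in β-TCP, 146 to 191 in hydrogel, 105 to 165 in PCL and 52.6 to 163 in control, and 1 of 11 tested, Cd4, was called in β-TCP against control (1.22, adjusted p = 0.0409), though not with β-TCP replicates 2 and 3 averaged (adjusted p = 0.156). At the study's threshold 3 of the 11 were higher there, Cd4 and both chains of the CD8 co-receptor, Cd8a at 1.70 (adjusted p = 0.119) and Cd8b at 1.30 (adjusted p = 0.14). Cd8a was at 6.58, 17.9 and 17.3 FPKM in β-TCP and 0.976 to 10.2 elsewhere. Cd4, which rat macrophages also carry, held 146 to 154 FPKM of the β-TCP sums. Cd3e, a chain of the T cell receptor complex, was at 4.78 to 6.18 FPKM in β-TCP and at 0.506 to 7.78 in control. NK cell markers summed to 30.3 to 37.3 FPKM in β-TCP, 32.7 to 43.7 in PCL, 56.2 to 85.9 in hydrogel and 6.91 to 67.8 in control, with no call at the adjusted p.

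**Figure D3:**
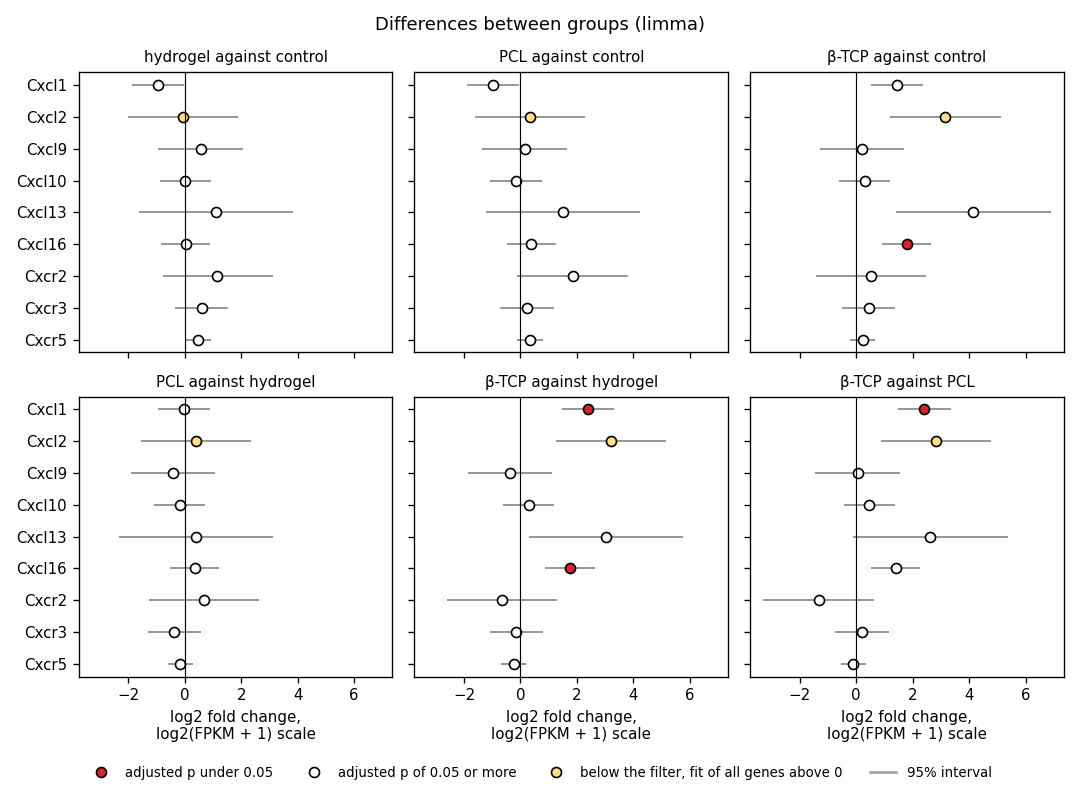
Log2 fold change (horizontal axis, log2(FPKM + 1) scale) of each gene in the 6 comparisons from limma, with the 95% interval as a line. Filled red points passed an adjusted p under 0.05, and Cxcl2 comes from the fit without the filter. Red points appear in the 3 β-TCP panels for Cxcl1 and Cxcl16 only, and the intervals of Cxcl13 are the widest.

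Within the β-TCP group the genes fell apart by how far replicates 2 and 3 stood above replicate 1. The mean of replicates 2 and 3 was 62.3 times replicate 1 for Cxcl13, 33.7 times for Cxcl2 (where replicate 1 had 16 fragments), 2.55 times for Cxcl16 and 2.05 times for Cxcl1. It was 1.42 times for Cxcl10, 1.12 times for Cxcl9, 1.03 times for Cxcr2 and 1.16 times for both Cxcr3 and Cxcr5. For Cxcl1 and Cxcl16, β-TCP replicate 1 was itself above every library of the other groups, and for Cxcl13 it was not. A chi-square test of the fragments separated β-TCP replicates 2 and 3 in 1 of the 9 genes, β-TCP replicates 1 and 2 in 4 and β-TCP replicates 1 and 3 in 6, at an unadjusted p under 0.05 that covers counting error only. Over all genes counted, the median chi-square of these pairs was 0.714, 3.22 and 3.17. The share of all genes past the same point was not counted, so the member counts are not read as particular to these genes. What sets β-TCP replicate 1 apart from the other 2 was not tested.

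**Figure D4:**
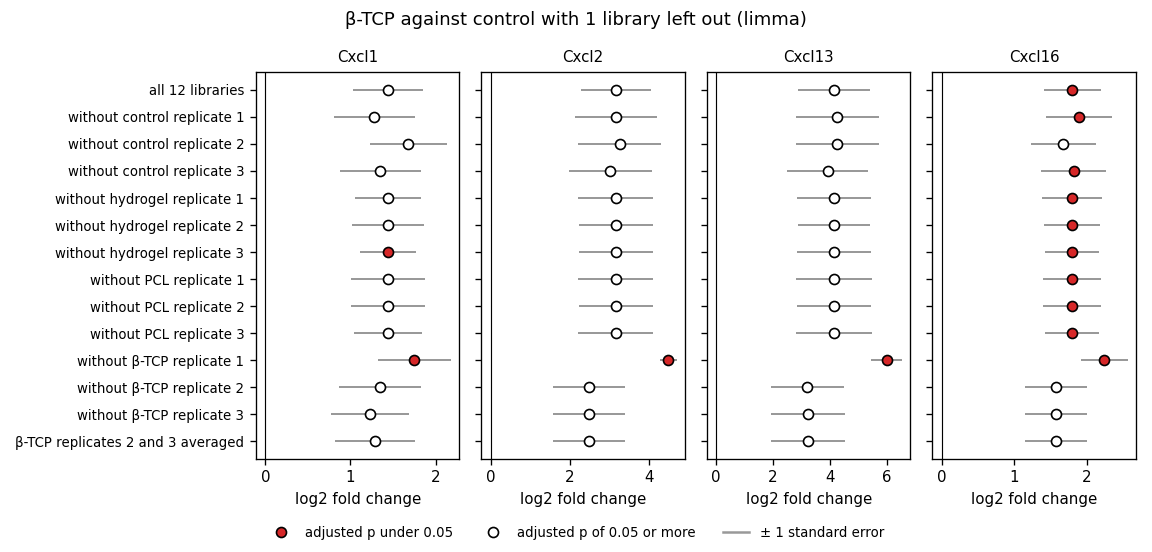
Log2 fold change of β-TCP against control (horizontal axis, with ± 1 standard error) for 4 ligands in limma fits of all 12 libraries, with each library left out in turn and with β-TCP replicates 2 and 3 averaged. All values lie above 0, red points passed an adjusted p under 0.05, and leaving out β-TCP replicate 1 raised Cxcl13 from 4.15 to 6.

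Among 19 further genes of the CXC, XC and CX3C families, of which 15 were tested, the ELR ligands Cxcl3 and Cxcl6 were, like Cxcl2, highest in β-TCP replicates 2 and 3, while the ELR ligand Ppbp was at 11.9, 2.28 and 3.09 FPKM in β-TCP replicates 1 to 3. Cxcl3 was at 19.3 and 20.4 FPKM in β-TCP replicates 2 and 3, at 0.595 in β-TCP replicate 1 and at 0 to 1.41 in the other groups. It passed the filter of 1 FPKM only through control replicate 2 and β-TCP replicates 2 and 3. Its entry into the test thus depended on the near-identical libraries in which it was high. Cxcl6 was at 5.55 and 5.81 FPKM in these replicates, at 1.2 in β-TCP replicate 1 and at 0.72 to 2.39 elsewhere. At the study's threshold 3 of the 15 were higher in β-TCP than in control and 0 lower: Cxcl3 at 2.53, Pf4, the platelet and macrophage chemokine Cxcl4, at 1.48 and Cx3cr1, a receptor of monocytes, at 1.02. None passed the adjusted p (0.11, 0.0524 and 0.059). An unadjusted p under 0.05 was found for 4 of the 15, and the share of all genes at that cut was not counted. In β-TCP against hydrogel 1 was higher (Cxcl3, 2.76) and 1 lower (Ppbp, a platelet ligand of Cxcr2, -3.20), and in β-TCP against PCL 2 were higher (Cxcl3, 2.56, and Cxcl6, 1.22) and 1 lower (Ackr1, a scavenging receptor of venules and red cells, -1.53). In PCL against control Ackr1 (1.75) and Pf4 (1.16) were higher. Hydrogel against control and PCL against hydrogel gave 0 of 15 at this threshold. Cxcr1, the other receptor of ELR ligands, was at 0 to 0.296 FPKM.

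Of 17 genes that induce CXC chemokines or carry their signals 10 were tested. Nfkbia, the NF-κB inhibitor that NF-κB itself induces, was called in β-TCP against control (1.22, adjusted p = 0.0125), hydrogel (1.02, adjusted p = 0.015) and PCL (1.33, adjusted p = 0.0197), at 137, 148 and 141 FPKM in the 3 β-TCP libraries and 45.7 to 82.2 elsewhere. With β-TCP replicates 2 and 3 averaged these adjusted p were 0.0782, 0.0769 and 0.128. Il6, an inflammatory cytokine, was called in β-TCP against hydrogel (0.82, adjusted p = 0.0352, and 0.146 with these replicates averaged), at 0.845, 1.06 and 1.22 FPKM against 0.288, 0.0607 and 0.127. Control libraries were at 0.376, 1.07 and 0.235 FPKM and PCL libraries at 0.401, 0.276 and 0.173. Control replicate 2 thus lay inside the β-TCP range. Il6 passed the filter of 1 FPKM only through control replicate 2 and β-TCP replicates 2 and 3. The 3 β-TCP libraries were thus alike for Nfkbia, and not split as those of Cxcl2 and Cxcl13 were. Il1b, another inflammatory cytokine, was at 16.2, 74.8 and 81.9 FPKM in β-TCP and 2.15 to 19.9 elsewhere, with β-TCP against control at 2.37 (standard error 0.68, adjusted p = 0.0744). Il1a was at 0.148, 3.78 and 3.99 FPKM in β-TCP and below 0.4 elsewhere. Tnf, Il17a and Ifnb1 were at 0 to 0.171 FPKM in all libraries, and Ifng, the inducer of Cxcl9 and Cxcl10, was listed at 0 in 11 of the 12 libraries and at 0.125 in hydrogel replicate 2, the library with the highest Cxcl9. Irf1, a transcription factor that interferons induce, was at 14.7 to 37.0 FPKM, lowest in control replicate 3.

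Of 8 proteases that process or release CXC chemokines, all were tested and 1, Mmp12, the macrophage elastase that trims ELR ligands, was called. It rose in β-TCP against control (3.40, adjusted p = 0.0251) and hydrogel (3.84, adjusted p = 0.015) and in PCL against control (4.30, adjusted p = 0.0338) and hydrogel (4.73, adjusted p = 0.0376). It was at 367 to 850 FPKM in PCL and at 91.4, 516 and 514 in β-TCP, and its relation to the levels of the ELR ligands was not tested. With β-TCP replicates 2 and 3 averaged these 4 adjusted p were 0.123, 0.0787, 0.0575 and 0.0802. Ctsg and Elane, serine proteases of neutrophil granules, were lower in β-TCP than in hydrogel at the study's threshold (-3.03 and -2.89), as was Dpp4, which clips Cxcl9 and Cxcl10 (-2.62), and none of these passed the adjusted p. In that comparison 2 of the 8 were higher at this threshold, Mmp12 and Mmp9. Mmp9 was at 935, 825 and 843 FPKM in β-TCP and at 414, 536 and 248 in hydrogel.

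For each of the 8 tested members the 3 genes with the most similar profile over the 12 libraries were taken by Pearson's r of log2(FPKM + 1). For Cxcl13 these were Irg1 (0.974), Rnf181 (0.954) and Galc (0.952), and for Cxcl16 Il1r1 (0.987), Ccl2 (0.984) and Npl (0.976). For Cxcl1 they were RGD1563941 (0.918), Capn12 (0.915) and Trpc6 (0.911). Those nearest Cxcr2 were LOC108348486 (0.993), Cyp4f18 (0.992) and Lrg1 (0.989), and those nearest Cxcr3 were Ly49s6 (0.942), Zap70 (0.938) and Sh2d1a (0.934). Cxcr5 was nearest to Siglech (0.933), LOC108349722 (0.929) and RT1-DOa (0.898), Cxcl10 to Cd2 (0.938), Trim8 (0.919) and Mnt (0.898), and Cxcl9 to RGD1566085 (0.944), Vps52 (0.899) and Gbp4 (0.867). The 12 points share their groups, and 2 of them are the near-identical β-TCP libraries. Among the members themselves the highest r was 0.89, between Cxcl13 and Cxcl16, while Cxcl13 and its receptor Cxcr5 had 0.18 and Cxcl1 and its receptor Cxcr2 had -0.30.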

How the data were processed

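Polyadenylated RNA of 12 libraries was sequenced. Before deposit, the authors used Trimmomatic for trimming, HISAT2 for alignment and Cufflinks for FPKM per gene, the unit of the deposited values. The submitters' processing notes name build Rnor_6.0 and also HTSeq, DESeq, Bowtie and StringTie, without versions. The methods describe Trizol extraction, a VAHTS kit and a NovaSeq instrument, while the labels name mirVana extraction, stranded TruSeq libraries and HiSeq instruments. Values of 3 columns whose names match no sample were not used.

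Groups were taken from the sample labels. Of 22601 genes, the 12633 at 1 FPKM or more in 3 or more libraries entered limma 3.58.1 (R 4.3.3). The model gave each group a mean of log2(FPKM + 1), with empirical Bayes moderation along the mean. P-values were two-sided and adjusted by Benjamini-Hochberg over the tested genes. The 6 comparisons share groups, so they are not independent. Fragments were recovered by dividing FPKM by the value of 1 fragment, and the quotients were within 0.01 of whole numbers in all 16545 genes above 0 in at least 6 libraries. The recovery and the test were tested on simulated data. Of 169 list symbols, 166 matched by name, 1 by a synonym and 2 (Hba-a2 and Jchain) did not. The members, the gene lists and the tests were chosen with earlier results of these data known. The text names the 9 members, up to 4 genes of each list with the largest change at the study's threshold or otherwise its 2 most abundant genes, and the 3 genes nearest each member. Other genes (inducers, Cxcr6, Cxcl6, Mmp9, Gp9, Itgb3 and the receptor-complex and signal genes given as levels) were chosen after their values were seen. Promoters were RefSeq sequences on GRCr8, matched by symbol for 8 of 9 members. Marker lists of dendritic, endothelial, platelet, erythroid, cartilage and muscle cells were also read. Their highest summed FPKM in control, hydrogel, PCL and β-TCP were 49.1, 58.3, 73.3 and 62.4 for dendritic, 203, 150, 131 and 167 for endothelial, 371, 464, 467 and 642 for platelet, 18034, 29402, 42599 and 10716 for erythroid, 14365, 798, 457 and 1060 for cartilage (control replicates 1 and 2 at 2440 and 2448) and 34.7, 515, 308 and 49.8 for muscle markers. Muscle sums were 49.7, 18.2 and 515 FPKM in hydrogel replicates 1 to 3 and 308, 15 and 254 in PCL replicates 1 to 3. In β-TCP most of the platelet sum came from Itgb3 (209 to 252 FPKM) and Pf4 (169 to 421). Gp9 was at 2.89, 0.432 and 0.106 FPKM in β-TCP and at 5.35 to 13.5 in hydrogel. In β-TCP against hydrogel 4 of the 6 tested platelet markers were lower at the study's threshold and 1 higher. Of all genes 3.36% were higher there, and the share lower is not given here. Alternatives were another pseudocount, no filter, 2 other scalings, fits of 2 groups only, a replicate block, β-TCP replicates 2 and 3 averaged, limma-voom on the fragments, the ratio of group means and each library left out. Figures were drawn with matplotlib 3.10.9.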

Additional observations from a re-analysis of the deposited data

Results flagged for a closer look

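The scaffold groups differed from each other in 3 results, each tested directly by limma between the scaffold groups. Cxcl1 was higher in β-TCP than in hydrogel by 2.39 on the log2 scale (standard error 0.40, adjusted p = 0.0131, all 3 β-TCP libraries above all 3 hydrogel libraries). It was higher in β-TCP than in PCL by 2.42 (standard error 0.40, adjusted p = 0.0362, all 3 above all 3). Cxcl16 was higher in β-TCP than in hydrogel by 1.76 (standard error 0.38, adjusted p = 0.0271, all 3 above all 3). None of these 3 calls held with β-TCP replicates 2 and 3 averaged.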

How the results depend on the processing

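The count of members at an adjusted p under 0.05 moved most. In β-TCP against control (1 in the fit reported) it was 0 in the fit of only the groups compared, with the replicate block and with β-TCP replicates 2 and 3 averaged, and 0 to 3 with 1 library left out. In β-TCP against hydrogel (2) it was 1 with the replicate block, 0 with those replicates averaged, 3 in the fit of those groups (Cxcl1, Cxcl16 and Cxcr2) and 0 to 3 with 1 library left out. In β-TCP against PCL (1) it was 0 with a pseudocount of 0.1, the replicate block, the averaged replicates or limma-voom, 2 in the fit of those groups and 0 to 3 with 1 library left out. The fits of those groups called 33.6% of all tested genes against hydrogel and 17.3% against PCL. The highest count of members with 1 library left out, 3, came without β-TCP replicate 1 in each comparison and also without control replicate 3 in β-TCP against PCL. Without β-TCP replicate 1, 4.16% of all tested genes were called against control, 5.36% against hydrogel and 0.372% against PCL. The β-TCP group then held only the near-identical libraries. Without control replicate 3, 15.1% of all tested genes were called in β-TCP against PCL. In the other 3 comparisons the count of members was 0 under all alternatives. At the study's threshold hydrogel against control (0) gave 1 with a pseudocount of 0.1, with median-of-ratios scaling, with quantile normalization, with limma-voom and with the ratio of group mean FPKM, and 0 to 3 with 1 library left out, the 3 without control replicate 1. The 1 was Cxcl1, lower, except for Cxcr5 with limma-voom and Cxcl13 without β-TCP replicate 1. PCL against control (0) gave 1 with quantile normalization, the fit of those groups, limma-voom and the ratio of group means, and 0 to 2 with 1 library left out, the 2 without control replicate 1. The counts of 3, 3 and 2 members in the β-TCP comparisons stayed within 1.5 times. The share of all genes past the study's threshold was not counted under the alternatives, so these member counts are not read as particular to the members. Cxcl9 and Cxcl10 in β-TCP against control reversed without control replicate 3, to -0.53 and -0.14, and with 1 library left out they reached 0.76 and 0.62 at most. The cause of these changes was not tested. Most libraries with the same number did not deviate together. Of 18 such pairs 4 had a correlation over 0.1 (range -0.61 to 0.47), and 2 of 12 libraries correlated best with their own number. The labels do not say what the number stands for, so whether the replicate block pairs libraries that share more than a number is not known. At 1 to 16 fragments per library, Cxcl2 outside the 2 high β-TCP libraries is too shallow to compare.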
